A study of Mus musculus with 4 samples.

Results

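The nuclear genes of oxidative phosphorylation were taken by symbol from the mouse annotation (GENCODE M21, build mm10) as the protein-coding nuclear genes of complexes I to V. Their symbols begin with Nduf followed by a, b, c, s or v and a number, with Uqcr, with Cox followed by 4 to 8 or with Atp5, or are Sdha to Sdhd. The rule found 85 gene records under 84 symbols, of 21938 nuclear protein-coding genes. There were 37 in complex I, 4 in complex II, 8 in complex III, 18 in complex IV and 18 in complex V. Atp5o has 2 overlapping records. Ndufab1 is not taken by the rule.

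Peaks of N6-methyladenosine (m6A) were mapped by m6A-seq in whole brain of 4-week-old mice of strain C57BL/6J, described for the series as Prrc2a flox/flox, that is, with both copies of Prrc2a flanked by recombination sites. All 4 samples, 2 immunoprecipitated (IP) with an antibody against m6A and 2 of input RNA, came from this 1 group, and the labels name neither a Cre driver nor the number of mice behind a sample. Each IP sample has a peak list, which the authors called against the matching input, whereas the input samples enter only through the fold enrichment, the linear ratio of IP over input given for each peak. No second group has values here, so that no test between groups was possible and all values are descriptions of 2 libraries.

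Oxidative phosphorylation passes electrons from NADH and succinate through complexes I to IV to oxygen, and complex V (ATP synthase) uses the resulting proton gradient to make ATP. The brain depends on this pathway for most of its energy. A small core of subunits is encoded in the mitochondrial genome, and the nuclear members are translated in the cytosol and imported. m6A is laid down on mRNA during transcription by a methyltransferase complex that prefers the core sequence GGAC, and in most mRNAs it is concentrated in long exons and around stop codons.

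The lists held 38533 peaks in replicate 1, with a median fold enrichment of 2.88, and 30134 in replicate 2, with a median of 2.20. Read numbers were not in the files, and depth is therefore unknown. A peak is called shared where it had at least 1 bp in common with a peak of the second list, and the common bases form a shared interval. Of the marker genes of brain cells, 6 of 7 for neurons, 5 of 5 for astrocytes, 6 of 6 for oligodendrocytes and 5 of 5 for microglia had a shared peak over an exon. Of the marker genes of other organs, 1 of 8 (Myh7, a myosin heavy chain) had one. In RNA of whole brain, m6A in some cells and partial methylation in all cells cannot be told apart.

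Shared peaks over exons were present in 32 of the 85 members, which is 37.6%. The share over all nuclear protein-coding genes was 45.5%. The share differed between the complexes. Shared peaks were found in 20 of 37 members of complex I, 2 of 4 of complex II, 2 of 8 of complex III, 2 of 18 of complex IV and 6 of 18 of complex V. Complex I thus lay above the share of all genes and complex IV, the terminal oxidase, below it at 11.1%. The position of complex I rested on peaks of low enrichment. When both peaks had to be enriched 2-fold or more, 3 of its 37 members and 3 of 18 of complex V had a shared peak, against 36.8% of all genes. Whether an mRNA was present in the brain was not measured, and all genes include those that may be silent there.

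Taken one list at a time, the members did not fall below the other genes. A replicate 1 peak was found over exons of 47 members (55.3%, against 54.4% of all genes) and a replicate 2 peak over exons of 45 (52.9%, against 49.5%). At least 1 peak in either list was found in 56 members (65.9%, against 56.8% of all genes). The overlap between the lists was lower. Of the members with any peak, 57.1% had a shared one, against 80.2% of all genes with any peak and 66.2% of those with an mRNA of at most 1000 nt. The remaining members with a peak were 4 with separate peaks in both lists, 11 with a peak in replicate 1 alone and 9 with a peak in replicate 2 alone, and 29 members had no peak. Over all 21938 nuclear protein-coding genes these counts were 354, 1597, 521 and 9479.

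**Figure D1:**
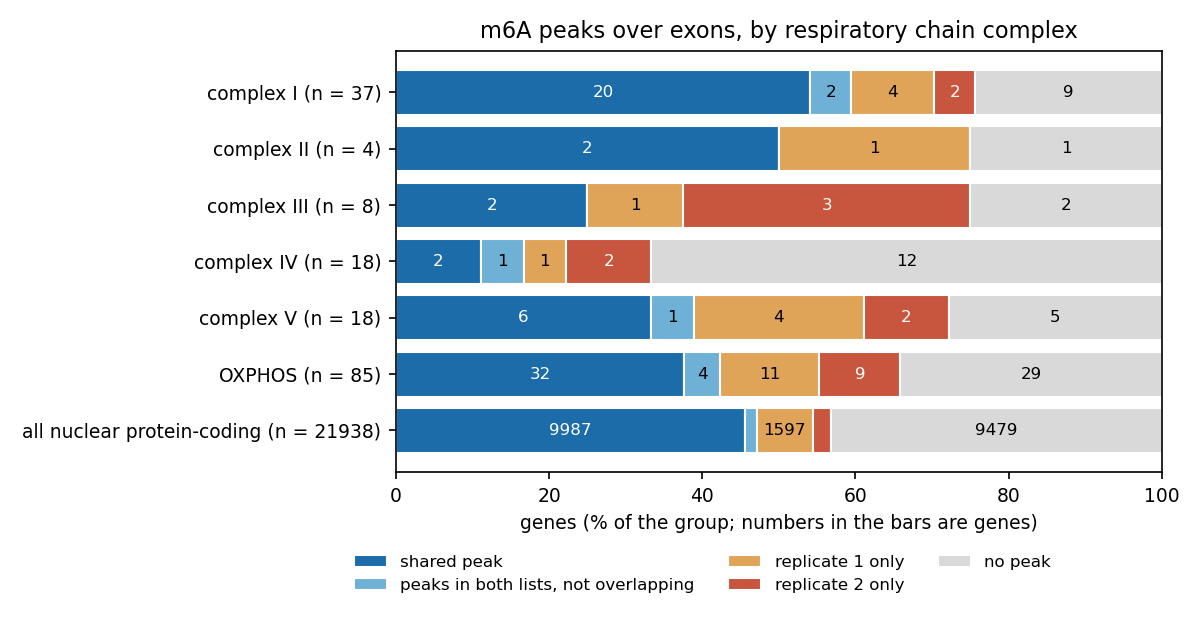
Share of genes (%, horizontal axis) by where an m6A peak lay over their exons, for the 5 complexes, all 85 members and all nuclear protein-coding genes, with colours for a shared peak, separate peaks in both lists, a peak in 1 list and none. Complex I has the largest shared part (20 of 37 genes) and complex IV the smallest (2 of 18), with 12 of 18 complex IV genes without a peak.

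The sequences around the core motif are shown to place it on these short mRNAs relative to the start and stop codons. Genes were taken in the order of the lower of both fold enrichments of their highest interval with a motif. For each gene the GGACT nearest the middle of the interval is printed with 12 bases on each side, or the GGAC where no GGACT qualified. To qualify, all bases had to lie in 1 exon of the representative mRNA, the coding transcript with the longest coding sequence (CDS). The intervals of Ndufa12 and Atp5h hold a GGACT, but outside this mRNA, so that GGAC is printed for them. Atp5k, Ndufv1, Sdhc, Ndufs5, Ndufa9 and Ndufb10 came before the last of the 10 in that order but had no such window. The last, Ndufb7, lay below the members' median in both replicates. Capitals mark the motif, the sequences read 5′ to 3′ on the strand of the gene (build mm10, GRCm38), and the motif's A is counted from the A of the start codon as 1.
Ndufa12, chr10:94199016-94199043, plus strand: cacggaaggggcGGACcatgcagatgag
Ndufa8, chr2:36049289-36049317, minus strand: gccagccaaaggGGACTtgaaggagacgg
Ndufv3, chr17:31527820-31527847, plus strand: ctaagaagaaatGGACcaagcctgtaga
Ndufb7, chr8:83566887-83566914, plus strand: cagcttcccgccGGACctcggctttccg
Ndufs1, chr1:63176611-63176638, minus strand: tcagggagacccGGACaggtccgcggaa
Uqcrb, chr13:66905334-66905362, minus strand: gcgtgtcctctaGGACTtacccagaaggc
Uqcrh, chr4:116074950-116074978, minus strand: gctcccgacatgGGACTagaggacgaacg
Cox7a2l, chr17:83502278-83502306, minus strand: ctcagggcctcgGGACTcaggcggtgtct
Atp5h, chr11:115415784-115415811, minus strand: agaaaccaagctGGACaaaaagaagtac
Atp5j2, chr5:145191509-145191537, minus strand: ctgcggacaccaGGACTtcaagatggcgt

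In 3 of these genes the motif lay next to the start codon. In Uqcrh the GGACT directly followed the start codon, with its A at position 6. In Ndufa12 it lay just before it, with the A at position -3, and in Atp5j2 the A was at position -8. Farther upstream were those of Uqcrb at position -37, Ndufs1 at position -44 and Ndufa8 at position -61. The motif thus lay in the 5′ UTR in 5 of the 10 windows. The windows of Ndufb7, Ndufv3 and Atp5h lay in the coding sequence at positions 83, 697 and 437, and that of Cox7a2l lay in the 3′ UTR, 311 nt after the stop codon. A match to the motif describes the sequence and does not place a methylated base.

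Complex I (NADH dehydrogenase) takes electrons from NADH. Its 7 core subunits of the nuclear genome, which carry the flavin and the iron-sulphur clusters, all had a peak in at least 1 list, and 3 of the 7 had a shared one. Ndufv1, which binds NADH, had a shared interval at chr19:4011073-4011545, with its middle in an exon of another transcript than the representative one, with a fold enrichment of 2.63 in replicate 1 and 2.22 in replicate 2. Ndufs1, the subunit with several iron-sulphur clusters, had one at chr1:63176468-63176651, at its 5′ end and likewise with its middle in an exon of another transcript, with 1.79 and 1.70. Ndufv2, another iron-sulphur subunit, had one over the stop codon in its last exon (chr17:66079388-66079689) with 1.33 in both replicates. The level of Ndufv1 was thus above that of Ndufs1 and Ndufv2 in both replicates.

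The other core subunits had no shared peak. Ndufs7, an iron-sulphur subunit near the quinone site, had a peak in its last exon in replicate 1 (1.88), and peaks of 1.78 and 1.63 nearer its 5′ end in replicate 2. Ndufs3 (1.70, over exons of Kbtbd4 as well) and Ndufs8 (1.61) had a peak in replicate 1 alone. In these 3 genes the replicates therefore did not place a peak on the same bases.

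Of the 30 accessory subunits of complex I, which surround the core, 17 had a shared peak. Ndufv3, a subunit next to the NADH-binding core, had 3 shared intervals. The interval in exon 2 (chr17:31521493-31521807) was enriched 2.29-fold in replicate 1 and 1.40-fold in replicate 2. The one in exon 3 (chr17:31527415-31528401) had 3.90 and 1.98, the highest replicate 1 value of all shared pairs of the members. The one over the stop codon (chr17:31530968-31531319) had 2.38 and 1.54. Exon 3 of Ndufv3 is the longest internal exon of any member, with 1092 nt against 566 nt for the next, and the shared interval covered 987 nt of it.

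Ndufa12 and Ndufa8, accessory subunits, had the next highest replicate 1 values of complex I. In Ndufa12, exon 1 (chr10:94198931-94199279) was enriched 3.23-fold in replicate 1 and 2.21-fold in replicate 2, and exon 2 (chr10:94199784-94200165) had 2.59 and 1.65. In Ndufa8, exon 1 (chr2:36049077-36049416, middle in the 5′ UTR) had 3.03 and 2.16. The exon 1 intervals of both genes and the interval of Ndufv1 were the 3 of 28 complex I pairs that reached 2 in both replicates.

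Ndufa13, also known as GRIM-19, had 3 shared intervals of low enrichment. Its last exon (chr8:69894189-69894407) had 1.55 in replicate 1 and 1.81 in replicate 2, exon 3 (chr8:69895121-69895459) had 1.17 and 1.21, and exon 2 (chr8:69901389-69901741) had 1.52 and 1.56. Ndufb9 had 2, with 1.54 and 1.47 in exon 1 (chr15:58933739-58934070) and 1.40 and 1.28 over the stop codon (chr15:58939275-58939474). In both genes several exons were thus covered, with no interval reaching 2 in either replicate.

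Ndufb7 had an interval in exon 1 (chr8:83566731-83567056) with 1.77 in replicate 1 and 1.55 in replicate 2. A second one at its stop codon (chr8:83571389-83571896), which also overlapped exons of Tecr, had 2.57 and 1.12, so that the replicates differed by more than 2-fold there. Ndufs5 had 1.63 and 1.14 in exon 1 (chr4:123715864-123716081), and 2.52 and 1.80 in an exon of another transcript (chr4:123717946-123718312). The lists carry no strand, so that signal over 2 overlapping genes cannot be assigned to one of them.

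The other 10 accessory members with a shared peak had 1 interval each. Those near the 3′ end were Ndufa10 (1.59 and 1.74, in the 3′ UTR), Ndufa5 (1.84 and 1.38, at the stop codon) and Ndufb3 (1.45 and 1.14, at the stop codon). Those in exon 1 were Ndufc1 (1.81 and 1.60), Ndufs6 (1.90 and 1.64, also over Mrpl36) and Ndufb2 (1.204 and 1.51, also over the antisense gene Gm16272). In the middle of the mRNA were Ndufb10 (2.66 and 1.74, exon 3) and Ndufs4 (1.25 and 1.31, exon 3), a subunit whose loss causes Leigh syndrome. The middle of the interval lay in an intron in Ndufa9 (2.44 and 1.80) and Ndufb8 (1.197 and 1.105), and that of Ndufb8 touched 1 base of its representative mRNA.

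In complex I a peak in replicate 1 alone was found in Ndufa7 (1.43) and Ndufc2 (1.67) besides the 2 core subunits, and in replicate 2 alone in Ndufa2 (1.39) and Ndufa3 (1.115). No peak was found in Ndufa1, Ndufa4, Ndufa4l2, Ndufa6, Ndufa11, Ndufb4, Ndufb5, Ndufb6 and Ndufb11. All 9 are accessory by name, and Ndufa4 is now counted by many as a subunit of complex IV.

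Complex II (succinate dehydrogenase) joins the Krebs cycle to the chain. Sdhc, a membrane anchor, had an interval at the 5′ end of the gene (chr1:171150385-171150590), with its middle in an exon of another transcript, with 2.16 in replicate 1 and 2.54 in replicate 2. Sdha, the flavoprotein, had one in exon 1 (chr13:74350014-74350345, also over Ccdc127) with 1.56 and 1.52. Sdhd, the other anchor, had a peak in replicate 1 alone (1.46, also over Timm8b), and Sdhb, the iron-sulphur subunit, had none.

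Complex III passes electrons from ubiquinol to cytochrome c. Its 2 members with a shared peak, Uqcrb and Uqcrh (the hinge protein), are small subunits with several intervals each. Uqcrh had 2.38 in replicate 1 and 1.95 in replicate 2 in exon 1 (chr4:116074753-116075115), 2.31 and 1.64 in exon 2 (chr4:116070558-116070936), and 2.60 and 1.745 in exon 3 (chr4:116069825-116070174). Uqcrb had 2.76 and 2.44 in exon 1 (chr13:66905101-66905492, also over Gm10767), and 1.74 and 1.53 in exon 2 (chr13:66902602-66902929). All 5 pairs were higher in replicate 1, and the exon 1 interval of Uqcrb alone reached 2 in both. Exon 2 of Uqcrh is 21 nt long in an interval of 379 nt. Exons 1 and 2 of Uqcrb are 86 and 72 nt long in intervals of 392 and 328 nt. Whether intervals over neighbouring short exons are separate sites was not tested, here or in the other members.

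The large core proteins of complex III, Uqcrc1 (1.435) and Uqcrc2 (1.54), and the small subunit Uqcr10 (1.325) had a peak in replicate 2 alone, and Uqcr11 (1.27) in replicate 1 alone. Uqcrfs1, the Rieske iron-sulphur protein, and Uqcrq had none.

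Complex IV (cytochrome c oxidase) reduces oxygen. Cox7a2l, which takes part in joining complexes III and IV into supercomplexes, had an interval in its 3′ UTR (chr17:83501955-83502424), in a last exon of 804 nt and with its middle 416 nt after the stop codon. Its fold enrichment was 3.56 in replicate 1 and 2.35 in replicate 2. Cox5a, a subunit on the matrix side, had one in exon 1 (chr9:57521216-57521528) with 1.13 and 1.19. The 2 members thus stood near opposite ends of the range of the pairs.

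Cox5b, another matrix subunit, had separate peaks in replicate 1 (1.535, first exon) and replicate 2 (1.35, last exon). Cox6a1 (1.16 and 1.27) and Cox6b1 (1.28 and 1.18) each had 2 peaks in replicate 2 alone. Of the 7 isoforms of restricted tissues (muscle, testis or, for Cox4i2, lung), Cox6a2, the form of heart and skeletal muscle, had a peak, in replicate 1 alone (2.58). The others, Cox4i2, Cox6b2, Cox7a1, Cox7b2, Cox8b and Cox8c, had none.

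Leaving these isoforms aside, 2 of 11 members of complex IV had a shared peak. Those without any peak were Cox4i1, Cox6c, Cox7a2, Cox7b, Cox7c and Cox8a, the common forms of their subunits. The share of the 11 members was 18.2%, below that of all genes (45.5%) and near that of all genes with an mRNA of at most 1000 nt (14.8%). The median mRNA of the 11 was 659 nt long.

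Complex V consists of the F1 part, which makes ATP in the matrix, and a membrane part with its stalks. No member of the F1 part had a shared peak. Atp5b, the catalytic beta subunit, had 2 peaks in replicate 2 alone (1.106 and 1.103), and so did Atp5d, the delta subunit (1.25 and 1.504). Atp5a1, Atp5c1 and Atp5e, the alpha, gamma and epsilon subunits, had none.

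Of the other 13 records of complex V, 6 had a shared peak. Atp5k, subunit e of the membrane part, had 2.30 in replicate 1 and 2.94 in replicate 2 at its stop codon (chr5:108433138-108433464), and 2.33 and 3.89 over a second interval with its middle in an intron (chr5:108433630-108434359). Atp5j2, subunit f, had 2.345 and 2.93 in exon 1 (chr5:145191315-145191702), and 1.33 and 1.28 in exon 2 (chr5:145187034-145187355). Atp5h, subunit d of the peripheral stalk, had 2.70 in both replicates over its stop codon, in an interval with its middle in an intron (chr11:115415680-115416214). These 4 intervals of 3 genes reached 2 in both replicates, and those of Atp5k and exon 1 of Atp5j2 were higher in replicate 2, unlike most pairs.

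A shared interval was also found in Atp5g3 (2.35 and 1.52, middle in an intron), which encodes the subunit of the rotating c-ring. The remaining shared intervals of complex V were those of Atp5j (2.06 and 1.415, 5′ UTR, also over Gabpa) and Atp5o (1.615 and 1.501, at the stop codon), both of the peripheral stalk. The other 2 genes of the c-ring had peaks in replicate 1 alone, with 4.73 in the 5′ UTR of Atp5g2 and with 1.675 and 2.93 in Atp5g1. Atp5g2 thus had the highest value of all member peaks, in 1 list. Atp5l (1.44, also over Gm30934) also had a peak in replicate 1 alone, Atp5f1 had separate peaks in replicate 1 (1.28) and replicate 2 (2.95), and Atp5mpl and the second record of Atp5o had none.

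Over all 45 shared pairs of the members, the fold enrichment had a median of 2.06 (1.55 and 2.52 as quartiles) in replicate 1 and 1.60 (1.40 and 1.95) in replicate 2. Over all 20993 pairs in exons of nuclear protein-coding genes the medians were 2.98 (2.20 and 4.07) and 2.30 (1.84 and 2.88). Of the members' pairs, 4 in replicate 1 and 7 in replicate 2 lay above the median of all pairs. In 10 of the 45 pairs both values were at least 2 (22.2%, against 61.5% of all pairs), and 8 pairs (17.8%, against 2.01%) were under 1.5 in both.

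In each complex the medians lay below those of all pairs. The median was 1.80 in replicate 1 and 1.56 in replicate 2 over the 28 pairs of complex I, 2.38 and 1.745 over the 5 of complex III, and 2.32 and 2.11 over the 8 of complex V. Complexes II and IV had 2 pairs each, with medians of 1.86 and 2.03 and of 2.34 and 1.77. Complex V came nearest to all pairs in replicate 2, and 4 of its 8 pairs reached 2 in both replicates. Replicate 1 was the higher in 34 of the 45 pairs (75.6%, against 78.3% of all pairs). The order of the pairs was partly shared between the replicates, with Spearman's rho of 0.694 over the 45 pairs and 0.639 over all pairs. Pairs of 1 gene share its transcript and both replicates share the peak caller, so that this is a description.

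**Figure D2:**
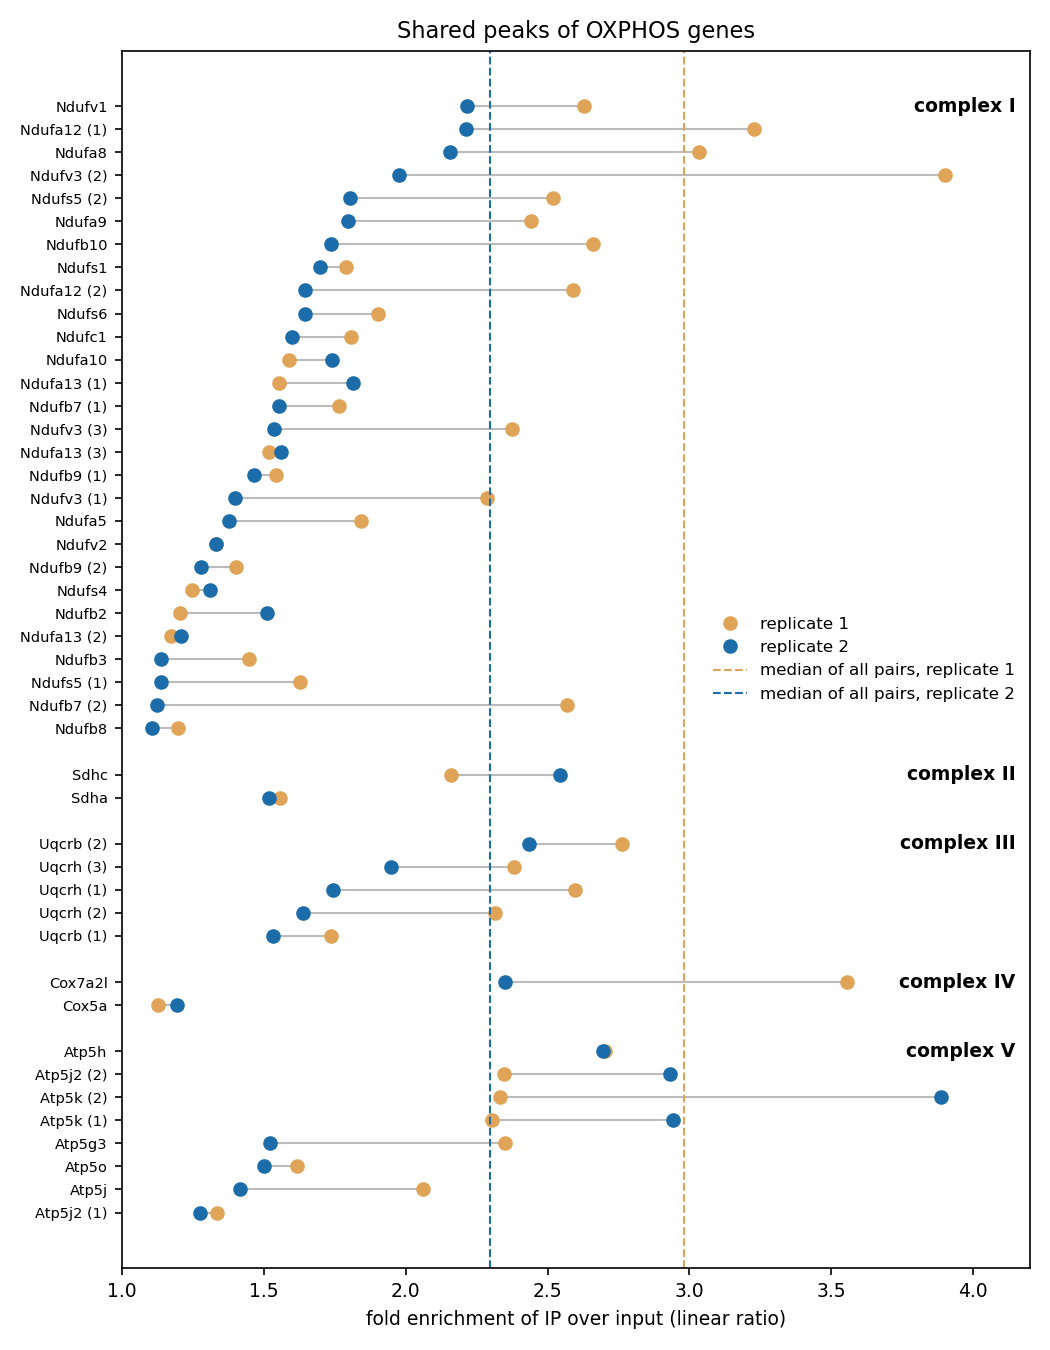
Fold enrichment of IP over input (linear ratio, horizontal axis) of the 45 shared pairs, 1 line per pair grouped by complex, with points for replicate 1 and replicate 2, dashed lines for the median of all pairs in each replicate, and numbers after a symbol for the intervals of 1 gene in the order of their coordinates. Most points lie below the median of their replicate (2.98 and 2.30), and the pairs of Atp5k, Atp5h and exon 1 of Atp5j2 have replicate 2 values of 2.70 to 3.89.

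Since m6A is usually found in long exons, the length of the mRNA was set beside the presence of a peak. The representative mRNAs of the members had a median of 763 nt, against 2542 nt over all genes, and their longest exon a median of 300 nt, against 1187 nt. Over all genes, mRNAs with a shared peak were longer (median 3334 nt) than those without (1946 nt). Among the members the medians were 849.5 nt with and 731 nt without.

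The shares were then read within bands of length. Of the mRNAs of at most 1000 nt, 19 of 54 members (35.2%) had a shared peak, against 14.8% of all genes of that length. Above 1000 and up to 2000 nt these shares were 8 of 24 (33.3%) and 30.5%. Above 2000 and up to 4000 nt, 4 of 5 members had one (50.7% of all genes), and 1 of 2 above 4000 nt (68.2%). The members were thus above the other genes in the shortest band and close to them in the next, and the longer bands hold few members. The overlap between the lists, as the share of genes with any peak that had a shared one, was 59.4% for the members and 66.2% for all genes up to 1000 nt, and 44.4% and 72.0% above 1000 and up to 2000 nt. Genes of one length may still differ in whether they are transcribed in brain, which was not tested.

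Within the short mRNAs too, the members' level of enrichment was below that of all genes. In mRNAs of at most 1000 nt the median of the members' pairs was 2.31 in replicate 1 and 1.595 in replicate 2, against 2.44 and 2.02 over all pairs of that length. In the same band, 25% of the members' pairs reached 2 in both replicates, against 45.9%. Above 1000 and up to 2000 nt the members' medians were 2.05 and 1.58, against 2.71 and 2.15 over all pairs. There 16.7% of the members' pairs reached 2 in both replicates, against 53.4%. The members' mRNAs had a median of 4.19 GGAC per kb, against 4.00 over all genes. Per mRNA the median was 4 GGAC, against 10 over all genes. Whether the motif goes with the level was not tested.

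**Figure D3:**
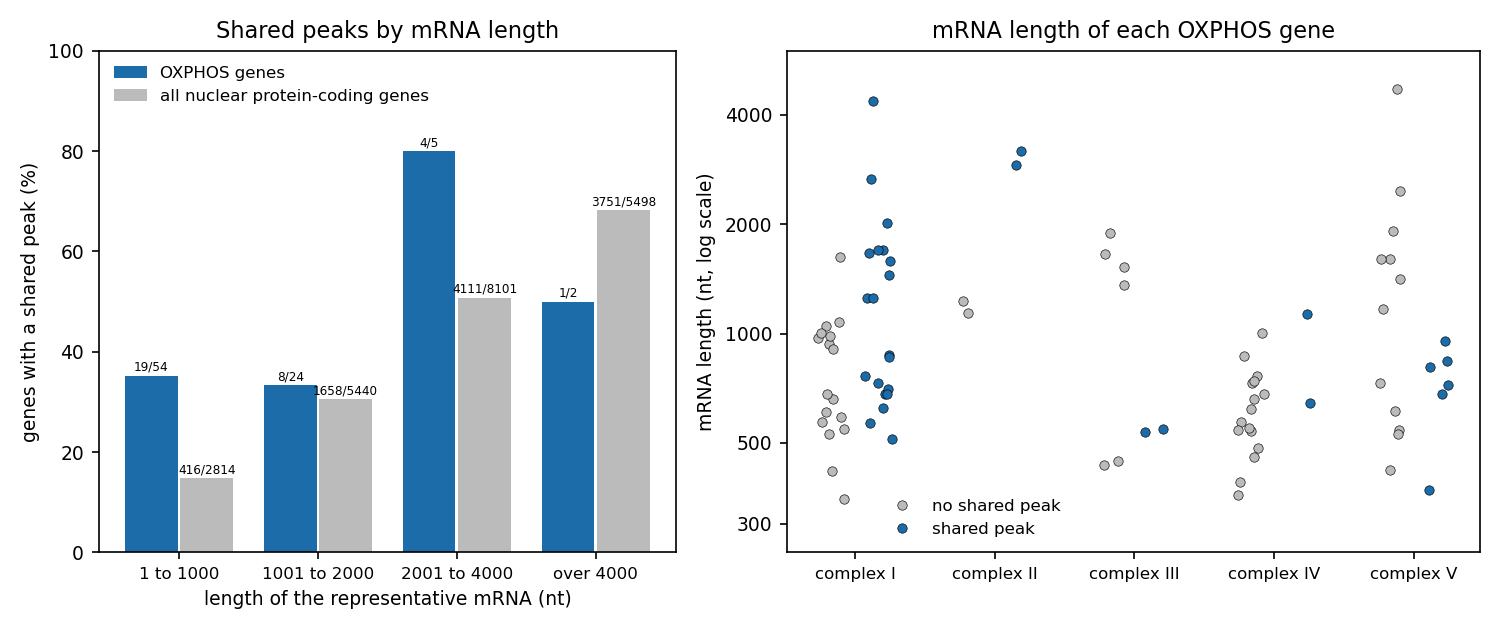
Left, share of genes with a shared peak (%) in 4 bands of mRNA length (nt), for the members and for all nuclear protein-coding genes, with the counts above the bars. Right, mRNA length (nt, log axis) of each member by complex, with colour for a shared peak. In mRNAs of at most 1000 nt the share is 35.2% for the members and 14.8% for all genes.

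The middle of 35 of the 45 shared intervals could be placed on the representative mRNA. Of these, 2 lay in the 5′ UTR, 30 in the CDS (85.7%, against 61.1% of all placed intervals) and 3 in the 3′ UTR (8.57%, against 29.5%). The middles of the other 10 lay in an intron (5), in an exon of another transcript (4) or outside the exons (1). The intervals were about as long as those of all genes (median 332 nt and 337 nt), and a median of 59.3% of an interval was exonic, against 100.0% over all intervals.

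The intervals were placed more often in the first exon than those of other genes. The first exon held 13 of the 35 (37.1%, against 13.3% of all), internal exons 12 (34.3%, against 38.1%) and the last exon 10 (28.6%, against 45.8%). The exons that held them had a median of 162 nt, against 959 nt. Among mRNAs of at most 1000 nt, the first exon held 45.5% of the members' placed intervals, against 26.0% of those of all genes. In 11 members an interval reached the first base of the representative mRNA, which is 24.4% of the intervals against 6.17% of all. These were Ndufa8, Ndufa12, Ndufb2, Ndufb9, Ndufc1, Ndufs6, Sdha, Uqcrb, Uqcrh, Cox5a and Atp5g3. Transcription start sites in brain were not measured, and the 5′ ends used are those of the annotation.

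Around the stop codon the share depended on length. Within 200 nt of it lay 11 of the 35 middles (31.4%, against 23.2% of all placed intervals). The 95% Wilson interval was 18.6% to 48.0%. It covers counting error only and takes the shared intervals as independent, although some members hold several. In mRNAs of at most 1000 nt the shares were 27.3% for the members and 49.9% for all genes. The stop codon itself was covered by 10 of the 45 intervals (22.2%, against 22.1% of all). It was covered in Ndufv3, Ndufv2, Ndufa13, Ndufa5, Ndufb3, Ndufb9, Ndufb7, Atp5h, Atp5k and Atp5o.

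The core motif was present in the genomic sequence of 30 of the 45 intervals, read on the strand of the gene (GGAC, 66.7%, against 81.4% of all intervals). The longer GGACT, which contains it, was present in 15 (33.3%, against 42.3%). The GC content was close to that of all intervals (median 54.8% and 53.7%). These counts cover the whole interval, intron and flanking bases included. A median of 59.3% of a member interval was exonic, against 100.0% over all, so the shares do not compare mRNA sequence alone. Of the 13 intervals with their middle in a first exon, 9 held GGAC and 7 held GGACT, counted in the same way. Ndufa12 and Ndufb9 are among these 7, although their representative mRNAs hold no GGACT. The 15 intervals without GGAC may hold other forms of the motif, which were not searched.

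**Figure D4:**
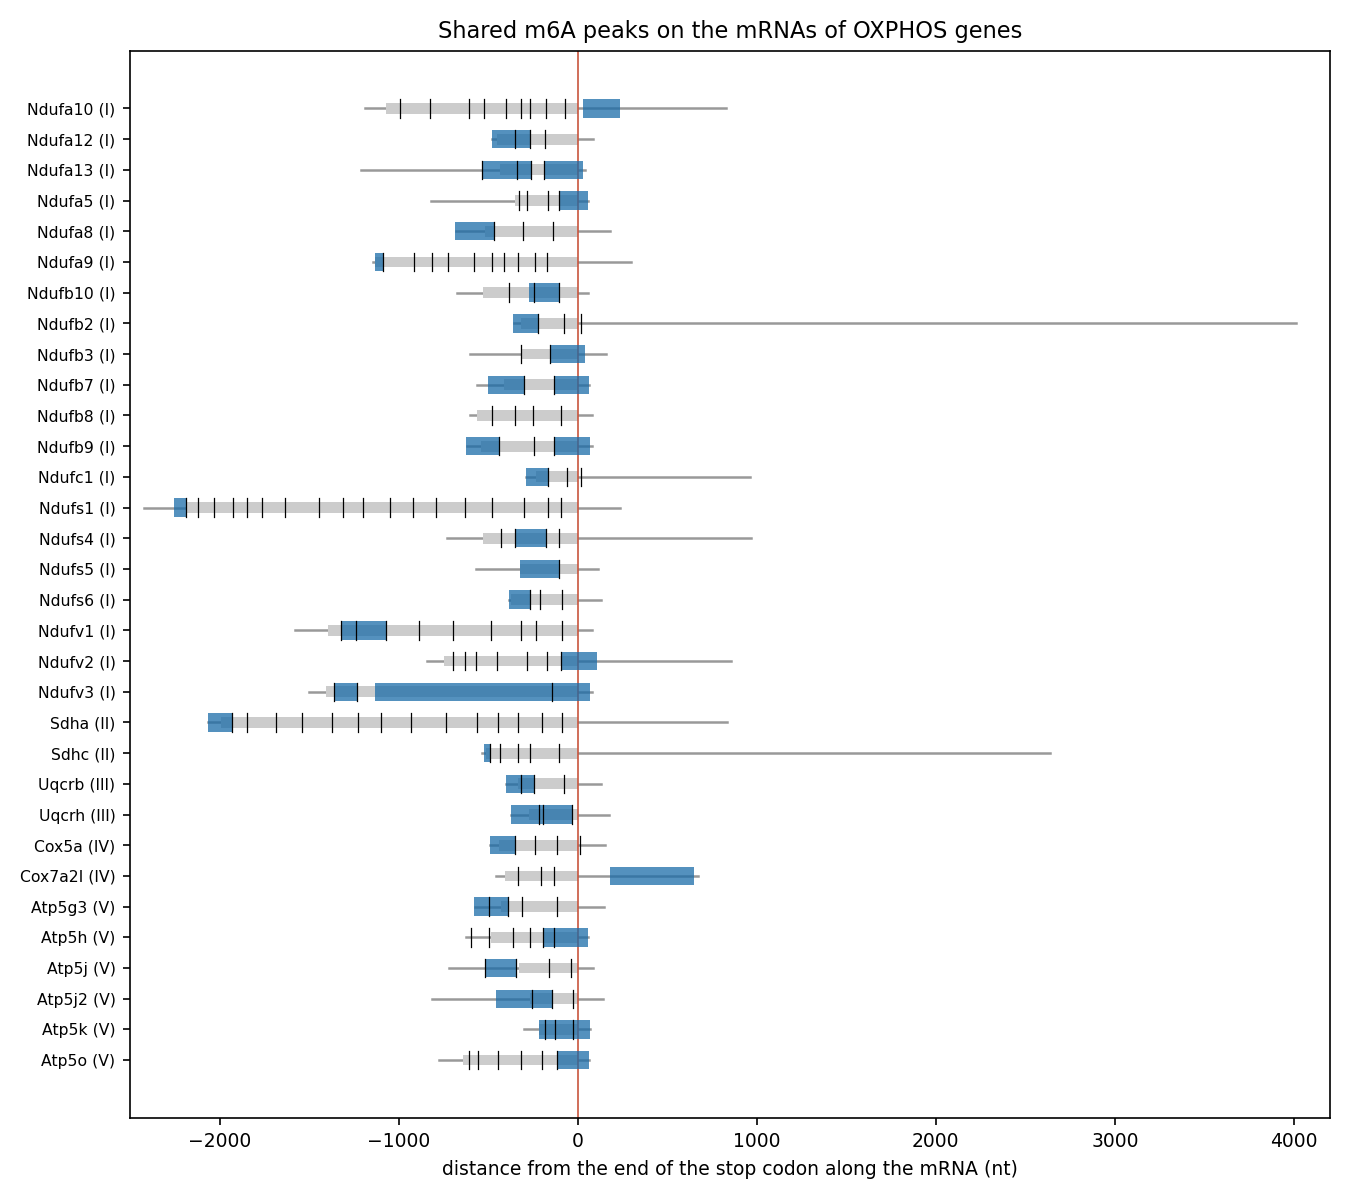
Representative mRNAs of the 32 members with a shared peak, drawn to scale with the distance from the end of the stop codon (nt, horizontal axis), with the UTRs as thin lines, the CDS as grey bars, exon junctions as black ticks and the bases covered by shared intervals in blue. Intervals of 11 genes reach the 5′ end, those of Ndufv3 cover most of its long exon 3, and those of Ndufa10 and Cox7a2l lie in the 3′ UTR, whereas that of Ndufb8 (1 base) is too short to be seen.

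Besides the shared peaks, the members carried 57 peaks without a partner in the other list, 30 in replicate 1 and 27 in replicate 2. Their median fold enrichment was 1.68 in replicate 1 (1.23 to 4.73) and 1.325 in replicate 2 (1.103 to 2.95). In replicate 1, 12 of the 25 that could be placed lay in the first exon, 10 in internal exons and 3 in the last. In replicate 2, 3 of 22 lay in the first exon, 11 in internal exons and 8 in the last. The first exon thus held more of them in replicate 1, and the last exon more in replicate 2. The same places are not given here for the single-list peaks of all genes. A difference between the 2 lists as a whole therefore cannot be told apart from one of the members. The coverage of the libraries along mRNAs, which could differ, was not measured.

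Other genes of mitochondrial function were set beside the members, as shares without a test. A shared peak was found in 29 of 44 assembly factors of the complexes (65.9%, median mRNA 1712.5 nt), with a median fold enrichment of 2.87 in replicate 1 and 2.46 in replicate 2. It was found in 9 of 17 enzymes of the Krebs cycle and pyruvate dehydrogenase (52.9%, 2.32 and 1.59), and in 9 of 11 regulators of mitochondrial biogenesis (81.8%, 3.14 and 2.68). Ppargc1a, the coactivator that drives mitochondrial biogenesis, had 5 shared intervals. The subunits (37.6%, 2.06 and 1.60) were thus below the factors that assemble them in share and in level, but their mRNAs were also shorter (763 nt) and the lists were not matched on length.

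Ribosomal proteins are also small subunits of large complexes. The proteins of the mitochondrial ribosome had a shared peak in 53 of 78 genes (67.9%) at a median mRNA length of 1302 nt, with a median fold enrichment of 2.64 and 2.155. Those of the cytosolic ribosome had one in 24 of 83 (28.9%) at 855 nt, with 1.98 and 1.705. Of the cytosolic ribosomal genes with any peak 53.3% had a shared one, against 57.1% of the members, and 7 of their 35 pairs reached 2 in both replicates, against 10 of the members' 45. In share, in overlap between the lists and in level the subunits of oxidative phosphorylation were therefore nearer to the cytosolic ribosomal proteins, whose mRNAs have a similar length, than to the mitochondrial ones. Over all genes, level and overlap rose from each band of mRNA length to the next. The median levels were 2.44 and 2.02 up to 1000 nt and 3.12 and 2.37 over 4000 nt. The overlap was 66.2% and 86.3% in these bands. Among the small lists of genes with longer mRNAs the values were mixed. The oligodendrocyte markers (median mRNA 2424.5 nt) had levels of 1.86 and 1.68, and the Krebs cycle and pyruvate dehydrogenase enzymes (2580 nt) an overlap of 56.25%. The microglia markers (2344 nt) had higher levels, 3.99 and 2.38, as had the regulators of mitochondrial biogenesis (3755 nt) with 3.14 and 2.68. Whether length accounts for the members' values was not tested.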

How the data were processed

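m6A-seq was performed on whole brain (2 IP and 2 input samples). According to the submitters' processing notes and the methods of the study, the authors aligned trimmed reads to mm10 with TopHat2 (2.0.9 in the notes, while the methods name another version), kept uniquely mapped reads, and called peaks with MACS2 for each IP replicate against its own input, without a fragment model, keeping all duplicates and applying a threshold to the false discovery rate. The deposited values are peak positions and their fold enrichment as a linear ratio (IP over input). Where coverage is deep, a peak with a ratio close to 1 can pass such a cutoff, and keeping duplicates can raise the ratio of peaks built on few molecules. Depth is unknown.

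Peaks were compared over all annotated exons of each gene (GENCODE M21), counted for 21938 genes, of which the members are a part. The common bases of overlapping peaks were counted in Python 3.11.15 and checked with bedtools 2.31.1 (23901 intervals in both) and on simulated data. For fold enrichment, peaks that were each other's best partner by overlap were paired. Wilson intervals used scipy 1.17.1, and sequences were read from GRCm38 with pysam 0.24.0. Near-identical copies were searched with blastn 2.17.0.

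The members and lists were chosen with earlier results of these data known. By rule, full values were given for members with at least 2 shared intervals, the 3 highest pairs of each complex by the lower fold enrichment, and the core subunits, and the other members were named. Values of 2 members that are part of the counts are not reported here. Alternatives were overlap of 50%, fold enrichment of at least 2, representative exons, intervals over 1 gene, midpoints, windows of 100 nt and 400 nt or any base in the window, means, the longest transcript and each replicate alone.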

Additional observations from a re-analysis of the deposited data

How the results depend on the processing

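The number of members with a shared peak was 28 to 32 with overlap of at least 50% of both peaks, exons of the representative transcript, intervals over 1 gene or midpoints in exons, and 45 or 47 when the list of replicate 2 or of replicate 1 was used by itself, against 45.5% of all genes shared in the lists and 41.95% to 54.42% under the same settings. With a minimum of 2 for both fold enrichments it fell to 9 members (36.82% of all genes), and the median fold enrichment was then 2.66 and 2.49 by construction. Complex I, above the share of all genes in the lists as called, was then below it with 3 of 37, and complex V had 3 of 18. The share of intervals near the stop codon was 17.1% with a window of 100 nt, 82.9% with 400 nt, 47.7% with any base in the window and 16.7% with fold enrichment of at least 2, and 35.5% to 40.4% with 1 replicate. The median mRNA length with a peak was 915 nt with the longest transcript, 861 nt with fold enrichment of at least 2, and 865 nt with 1 replicate, whichever was used, and without a peak it was 638.5 nt to 681.5 nt with 1 replicate. In all, 24 of 36 alternative values stayed within the tolerance, which was 1.5 times for counts of genes, the Wilson interval for the share near the stop codon and the spread between replicates for medians (nil for mRNA length with a peak, so that small moves count there), and 12 did not.

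No paired analysis was possible because the input samples, which share replicate numbers with the IP samples, have no values here, and no result comes from a test. Depth, which is unknown, limits how far a missing peak can be read as missing m6A.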

Other observations

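The members' partners in the mitochondrial genome, the 13 proteins of complexes I, III, IV and V that are encoded there, lay almost all under peaks. A shared peak was found over 12 of the 13, all except mt-Nd2, which was covered in replicate 1. The peaks there were few and wide, 3 in replicate 1 and 5 in replicate 2, and several genes share 1 peak. The fold enrichments were 1.18, 1.02 and 2.22 in replicate 1, with lengths of 1612, 7309 and 2707 nt. In replicate 2 they were 1.29, 1.58, 1.32, 2.28 and 1.62, with lengths of 2869, 5901, 376, 1023 and 896 nt. Such widths do not place m6A on single transcripts.

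Many members have near-identical copies in the genome, and reads that match several places were not kept by the authors. Copies with at least 95% identity over at least 50% of the representative mRNA numbered 37, for 18 members. Of the 18, 9 had a shared peak (50.0%), and of the other 67 members 23 (34.3%). A peak in either list lay over 1 of the 37 copies and a peak in both lists over none. How many reads of these members were lost at alignment was not tested.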
